A study of Mus musculus with 10 samples.

Results

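Collagen genes were examined in whole testes of mice at postnatal day 4 (P4) by bulk RNA-seq. The members are all protein-coding genes whose gene ID maps to a symbol of the form Col, a number, a and a number, which took 44 of the 54232 genes in the count table. Of these, 11 encode fibrillar collagens, 8 basement membrane collagens and 25 other collagens, and 40 had enough reads to be tested. *Dis3* cKO testes (n = 5) came from *Dis3* F/−; *Ddx4-Cre* mice, which carry 1 floxed and 1 deleted allele of *Dis3* and a Cre driven by the germ cell gene *Ddx4*. Control testes (n = 5) came from siblings of the same litter, and their alleles are given only as wild type. B6D2F1 is the strain named, which the paper gives for the zygotes in which the floxed allele was made. Each library was made from the pooled pair of testes of 1 mouse. Because Cre acted in germ cells, its deletion of the floxed allele was not directed at the somatic cells that make most testicular collagen. By the genotype given, those somatic cells of *Dis3* cKO mice still carry the 1 deleted allele. DIS3 is a ribonuclease of the RNA exosome, which degrades nuclear transcripts.

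Collagens are trimeric proteins of the extracellular matrix in which chains wind into a triple helix. Fibrillar collagens (types I, II, III, V, XI, XXIV and XXVII) assemble into the tensile fibrils of connective tissue, type IV chains form the sheet-like network of basement membranes, and type VI chains form beaded filaments at the border between cells and matrix. FACITs are collagens with interrupted helices that sit on fibrils, and membrane-spanning collagens are anchored in the cell surface. In the testis, a basement membrane surrounds each seminiferous tubule, laid down by Sertoli cells within and peritubular myoid cells outside, while fibroblast-like cells of the interstitium and of the capsule make fibrillar collagens.

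The libraries did not spread evenly, and the results are given for replicates 1 to 3, for replicates 4 and 5, and for all. Gene counts per library were 28538849 to 37739906 in *Dis3* cKO (median 31967052) and 35391042 to 41104912 in control (median 35881148). A chi-square statistic per gene between pairs of libraries of 1 group was lowest for control 1 and 2 (4.39), *Dis3* cKO 2 and 3 (4.71), control 4 and 5 (5.18) and *Dis3* cKO 4 and 5 (9.89), and was 15.9 or more for the other 16 pairs, where 1 is the value of sampling noise. The labels and the methods name no batch that would divide replicates 1 to 3 from replicates 4 and 5. *Dis3* itself, counted over the whole gene (chromosome 14, 99075206 to 99099770, GRCm38), had 1494 ± 167 normalised counts in *Dis3* cKO and 4596 ± 491 in control (SD, n = 5 each), with a log2 fold change of -1.62 (SE 0.09, edgeR quasi-likelihood test, adjusted p = 3.78e-07), and the groups did not overlap. A normalised count is a read count divided by the relative effective size of its library. The paper describes each library as RNA of 1 mouse and the 5 libraries of a group as biological replicates. It does not say which libraries were prepared together, and p-values measure only the spread between these libraries.

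The testis expressed collagens over several orders of magnitude in length-scaled units (RPKM, which scales a gene's reads to its exon length and to the size of the library). Highest was *Col1a1*, the main chain of type I collagen of fibrous tissue, at 613 ± 199 RPKM in *Dis3* cKO and 407 ± 159.6 RPKM in control (SD, n = 5 each). Next came *Col6a1*, a core chain of type VI collagen, at 268 ± 44 RPKM in *Dis3* cKO and 223 ± 33.9 RPKM in control, and *Col3a1*, the sole chain of type III collagen of pliable tissue, at 210.4 ± 73.4 RPKM in *Dis3* cKO and 184 ± 26.6 RPKM in control. The chains of the common basement membrane, *Col4a1* and *Col4a2*, reached 141 ± 18.5 RPKM in *Dis3* cKO and 114 ± 13.4 RPKM in control, and 117 ± 17.5 RPKM in *Dis3* cKO and 90.1 ± 13.6 RPKM in control. The intervals of 1 SD around *Col3a1* and *Col6a1* overlapped in both groups. An SD here is the spread between libraries, and the order of genes within a library was not tested. The 44 genes held 1.44% ± 0.359 of all gene counts in *Dis3* cKO and 1.16% ± 0.254 in control (SD, n = 5 each). At the other end, the cartilage collagens *Col2a1*, *Col11a2* and *Col10a1* and the FACIT *Col19a1* had at most 16 reads in any library and were not tested.

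**Figure D1:**
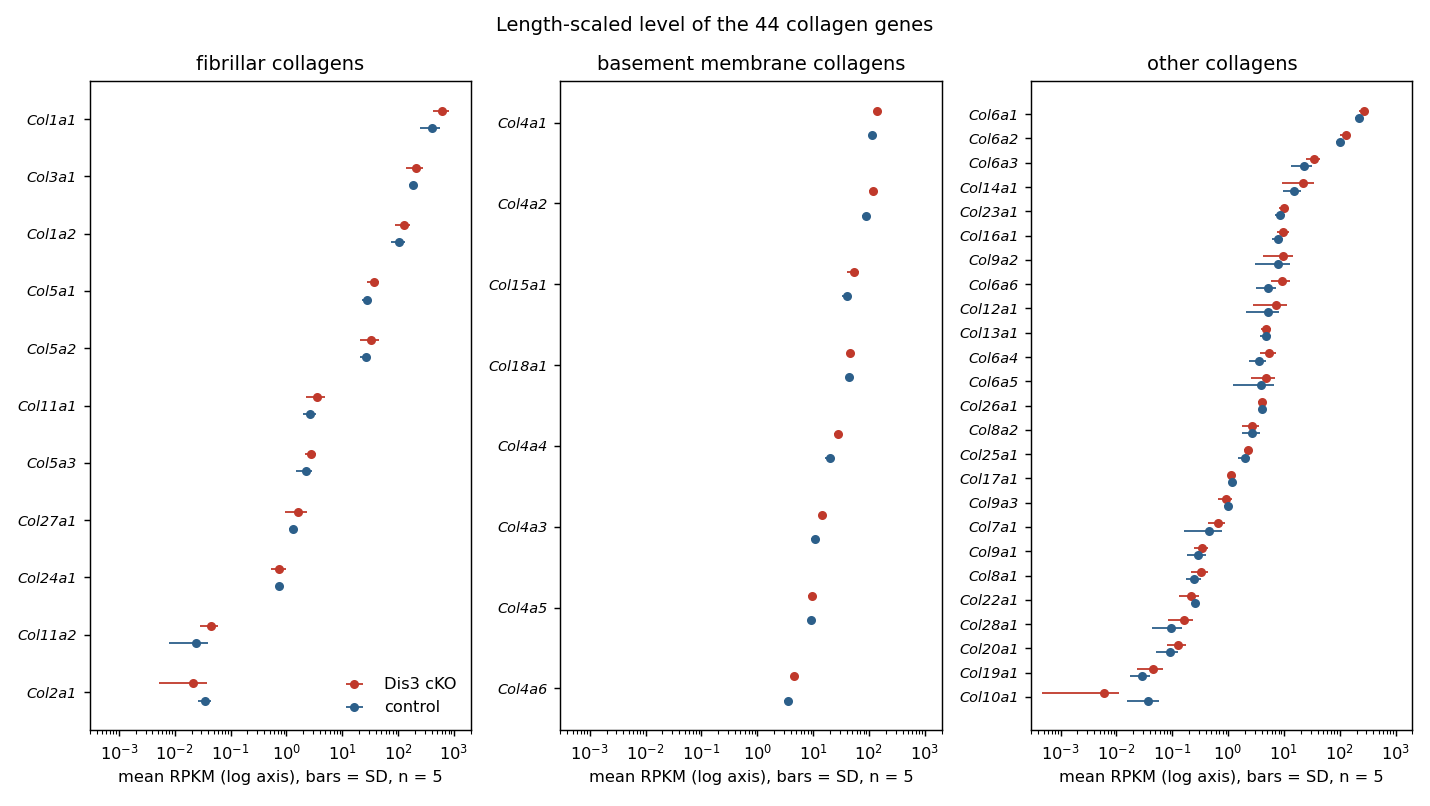
Mean length-scaled level of each of the 44 collagen genes in *Dis3* cKO (red, upper point) and control (blue, lower point) testes, in RPKM on a log axis, with bars for the SD over 5 libraries. Col1a1, Col3a1, Col6a1, Col1a2, Col4a1, Col4a2 and Col6a2 stand near or above 100 RPKM, and Col2a1, Col11a2, Col10a1 and Col19a1 lie below 0.1 RPKM in both groups.

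Over all 10 libraries, 2 of the 40 tested collagen genes rose in *Dis3* cKO testes and 0 fell at an adjusted p under 0.05 (edgeR quasi-likelihood test, Benjamini-Hochberg over 20043 genes). Both encode chains of the specialised type IV network, *Col4a3* and *Col4a4*. That is 5% of the tested members, against 4.42% of all genes tested called higher and 3.48% called lower, so the count lies near the background. At an unadjusted p under 0.05, 13 members were higher and 0 lower, and DESeq2 called 6 higher and 0 lower. Without control replicate 3 the count was 9 and without *Dis3* cKO replicate 1 it was 6, all higher. The median log2 fold change of the members was 0.32, against -0.01 for all genes tested, and 35 of 40 members had a positive value. In bulk testes, fewer cells of a type and less RNA per cell cannot be told apart.

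The spread behind these values was large and lay between the library subsets. Summed over the 11 fibrillar genes, normalised counts were 171073, 252197, 257725, 376361 and 394563 in *Dis3* cKO replicates 1 to 5, against 250585, 252108, 286934, 152989 and 154473 in control replicates 1 to 5. Replicates 4 and 5 were the highest of the *Dis3* cKO libraries and the lowest of the control libraries, while *Dis3* cKO replicate 1 lay close to control replicates 4 and 5. Summed over the 25 other collagens, normalised counts were 78776, 108040, 109509, 141107 and 146569 in *Dis3* cKO replicates 1 to 5, against 97852, 96747, 116031, 73182 and 73139 in control replicates 1 to 5. The subsets had the same order. Summed over the 8 basement membrane genes, normalised counts were 85254, 111016, 115719, 103974 and 109447 in *Dis3* cKO replicates 1 to 5, against 80419, 78871, 100167, 79147 and 80906 in control replicates 1 to 5. Here *Dis3* cKO replicates 4 and 5 lay above replicate 1 and just below replicates 2 and 3, and control replicate 3 was the library that stood apart, above the other 4 controls.

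**Figure D2:**
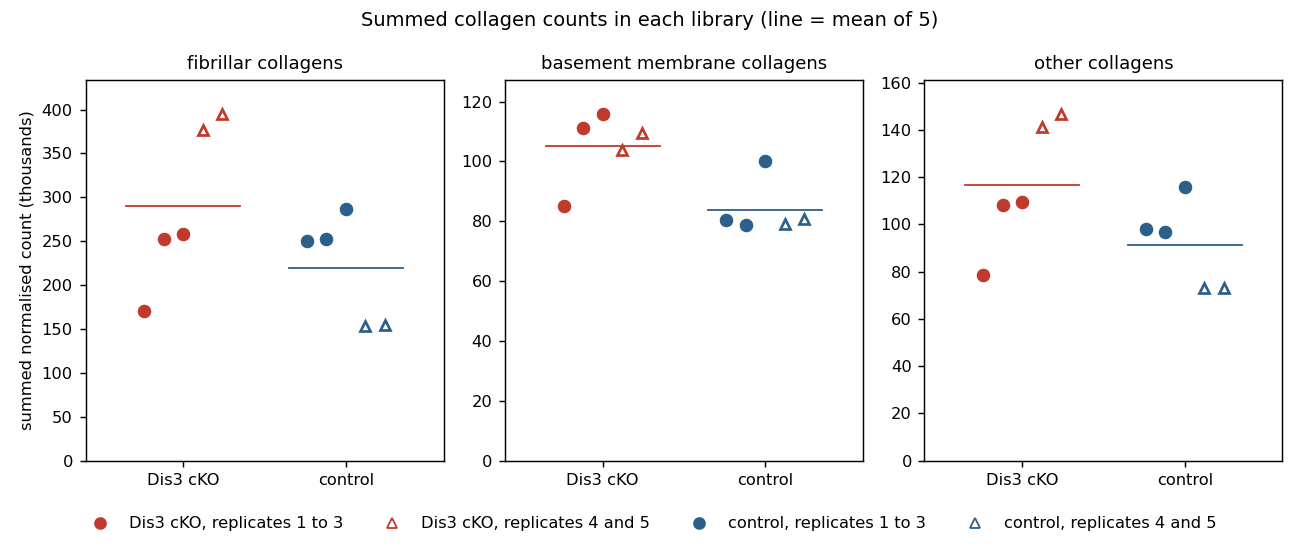
Summed normalised counts (in kilocounts on the axis) of the fibrillar, basement membrane and other collagens in each library, with *Dis3* cKO left of control. Filled circles are replicates 1 to 3, open triangles replicates 4 and 5 and the line the mean of 5; in the fibrillar panel the triangles lie at the top of *Dis3* cKO (376361 and 394563) and at the bottom of control (152989 and 154473).

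When genotype was fitted within each library subset in 1 model of all 10 libraries, collagen genes gave different counts. In replicates 4 and 5, 27 of 40 members rose in *Dis3* cKO and 0 fell (67.5% of members), against 9.11% of all genes tested called higher and 9.21% called lower, with a median log2 fold change of 0.75, against -0.01 for all genes. In replicates 1 to 3, 4 members rose and 5 fell, against 6.5% of all genes called higher and 4.11% called lower, with a median of -0.02, against -0.02. Those 9 calls became 4 without control replicate 1 or 2. The difference between the 2 folds, tested as an interaction, was positive and past the threshold for 19 members and negative for 0, against 2.56% of all genes called positive and 2.02% called negative. With the 4 close library pairs merged, 10 of the 19 kept the call, and *Col3a1*, *Col5a2*, *Col27a1*, *Col4a6*, *Col6a1*, *Col6a2*, *Col6a4*, *Col8a2* and *Col16a1* lost it. The groups did not overlap, with *Dis3* cKO higher, in 33 members in replicates 4 and 5 and in 4 in replicates 1 to 3, against 28.4% and 13.8% of all genes tested. *Dis3* cKO was lower without overlap in 2 members in replicates 4 and 5 (*Col13a1* and *Col17a1*) and in 12 in replicates 1 to 3, against 31.2% and 14.1% of all genes. Within *Dis3* cKO, replicates 4 and 5 lay above replicates 1 to 3 in 31 of 40 members and below them in 0, against 20.6% and 20.8% of all genes. Within control, replicates 4 and 5 lay above replicates 1 to 3 in 8 members and below them in 25, against 23.7% and 24.1% of all genes. In 22 of 40 members, replicates 4 and 5 lay above replicates 1 to 3 in *Dis3* cKO and below them in control, a pattern of 3.06% of all genes tested. The interaction calls comprised 6 of 9 tested fibrillar genes, 1 of 8 basement membrane genes and 12 of 23 other collagens. The fit in replicates 4 and 5 sets 2 libraries against 2, with a spread shared with the other 6. The division into subsets was made after the data were seen, so adjusted p values within and between the subsets may be too small.

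**Figure D3:**
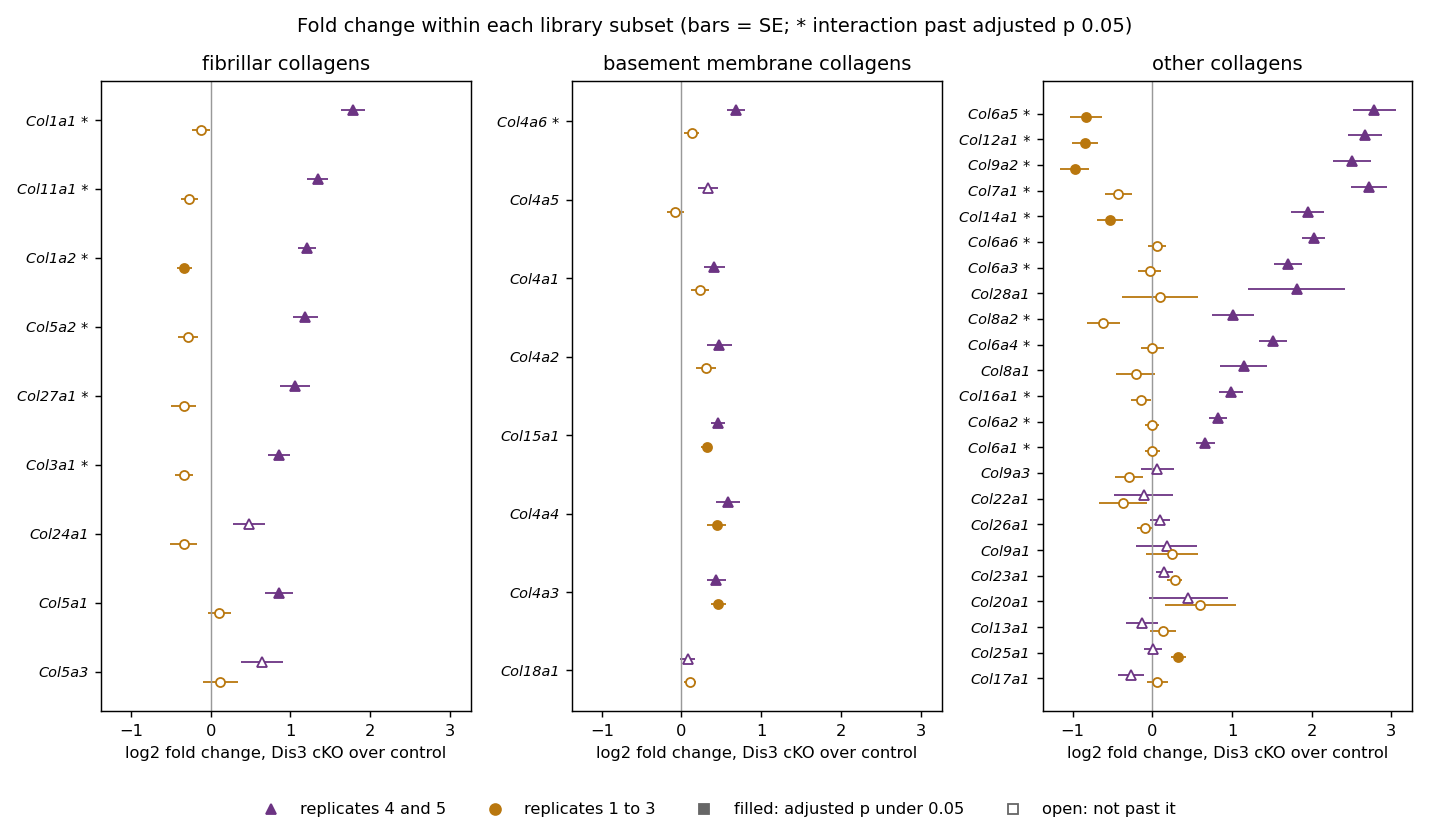
Log2 fold change (*Dis3* cKO over control) of each of the 40 tested collagen genes within replicates 4 and 5 (purple triangles) and within replicates 1 to 3 (orange circles), with bars for the SE, filled where the adjusted p was under 0.05 and starred where the interaction passed it. The interaction star stands at 6 of 9 fibrillar genes, 1 of 8 basement membrane genes and 12 of 23 other collagens.

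Of the 8 basement membrane genes, 2 rose in *Dis3* cKO over all libraries, 3 in replicates 1 to 3 and 6 in replicates 4 and 5, and 0 fell in any of these. The shares of all genes tested that were called higher are 4.42%, 6.5% and 9.11% in these 3 comparisons. *Col4a3*, which with *Col4a4* and *Col4a5* forms the type IV network of kidney glomeruli, had 4727, 5355, 5343, 4791 and 4901 normalised counts in *Dis3* cKO replicates 1 to 5, against 3343, 3360.5, 4511, 3595 and 3556 in control replicates 1 to 5. It was the 1 member whose groups did not overlap over all 10 libraries, as in 4.59% of all genes tested with *Dis3* cKO higher, while 0 members and 4.31% of all genes had it lower. On the log2 scale, the fold change was 0.45 (SE 0.08, adjusted p = 0.00658) over all libraries, 0.46 (SE 0.10, adjusted p = 0.00477) in replicates 1 to 3 and 0.44 (SE 0.12, adjusted p = 0.0155) in replicates 4 and 5. *Col4a4*, its head-to-head neighbour on chromosome 1, had 8332, 11240, 12362, 9458 and 9868 normalised counts in *Dis3* cKO replicates 1 to 5, against 7193, 6919, 9379, 6660.4 and 6243 in control replicates 1 to 5. *Dis3* cKO replicate 1 lay below control replicate 3 and the groups otherwise separated. Its log2 fold change was 0.49 (SE 0.12, adjusted p = 0.0227) over all libraries, 0.44 (SE 0.12, adjusted p = 0.0267) in replicates 1 to 3 and 0.58 (SE 0.15, adjusted p = 0.0124) in replicates 4 and 5. The call of *Col4a4* over all libraries was lost, with the value still positive, without *Dis3* cKO replicate 2 or 3 and without control replicate 1, 2, 4 or 5. It was also lost with the gene length trend removed. With the close library pairs merged, the calls of *Col4a3* and *Col4a4* over all libraries were both lost, with positive values. The calls of both genes in replicates 4 and 5 were lost without any 1 of those 4 libraries. For both genes the 2 folds did not pass the interaction test (*Col4a3* difference -0.02 (SE 0.15, adjusted p = 0.968), *Col4a4* difference 0.14 (SE 0.19, adjusted p = 0.788)).

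The abundant pair *Col4a1* and *Col4a2*, whose products form the network of all basement membranes, had positive log2 fold changes that did not pass the threshold over all libraries. Both passed in DESeq2, with the library subset as a term, without *Dis3* cKO replicate 1 and without control replicate 3. *Col4a1* had 28744, 39219, 41334, 35799 and 37393 normalised counts in *Dis3* cKO replicates 1 to 5, against 29312, 28046, 35593, 26889 and 28089.5 in control replicates 1 to 5. *Dis3* cKO replicate 1 fell among the controls, and control replicate 3 stood above the other 4 controls, just below *Dis3* cKO replicate 4. For this gene, the log2 fold change was 0.30 (SE 0.10, adjusted p = 0.0833) over all libraries, 0.23 (SE 0.11, adjusted p = 0.199) in replicates 1 to 3 and 0.41 (SE 0.13, adjusted p = 0.0418) in replicates 4 and 5. *Col4a2* had 20538, 29398, 30668, 25251 and 27955 normalised counts in *Dis3* cKO replicates 1 to 5, against 19685, 19321, 26247, 18732 and 19506 in control replicates 1 to 5. Control replicate 3 lay above *Dis3* cKO replicates 1 and 4, and the groups otherwise separated. Its log2 fold change was 0.37 (SE 0.12, adjusted p = 0.0651) over all libraries, 0.30 (adjusted p = 0.147) in replicates 1 to 3 and 0.48 (adjusted p = 0.0435) in replicates 4 and 5. The calls of both genes in replicates 4 and 5 were each lost in 8 of 16 alternatives, among them DESeq2 and leaving out any 1 of those 4 libraries.

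*Col4a6*, the partner of *Col4a5* in smooth muscle basement membranes, had 1062, 1228, 1214, 1387 and 1317 normalised counts in *Dis3* cKO replicates 1 to 5, against 1034, 952, 1219, 849 and 837 in control replicates 1 to 5. Its controls 4 and 5 were the lowest libraries and its *Dis3* cKO replicates 4 and 5 the highest. Its log2 fold change was 0.68 (SE 0.11, adjusted p = 0.000669) in replicates 4 and 5 and 0.13 (SE 0.09, adjusted p = 0.437) in replicates 1 to 3, and the difference of 0.55 (SE 0.15, adjusted p = 0.0405) made it the 1 basement membrane gene past the interaction test. That call was lost in 8 of 16 alternatives, among them without *Dis3* cKO replicate 2, 4 or 5 and without control replicate 1, 3, 4 or 5. *Col4a5* had log2 fold changes of 0.09 (adjusted p = 0.64) over all libraries and 0.34 (adjusted p = 0.0723) in replicates 4 and 5. *Col15a1*, a multiplexin at the border of basement membrane and interstitium, had 9592, 10170, 9682, 14959 and 14660 normalised counts in *Dis3* cKO replicates 1 to 5, against 7383, 7466, 8812, 10818 and 10728 in control replicates 1 to 5. Each of its subsets separated by genotype, but replicates 4 and 5 stood above replicates 1 to 3 in both genotypes, so that the groups overlapped over all libraries. For this gene, the log2 fold change was 0.32 (SE 0.07, adjusted p = 0.00689) in replicates 1 to 3, 0.46 (SE 0.08, adjusted p = 0.00135) in replicates 4 and 5 and 0.39 (SE 0.15, adjusted p = 0.138) over all. With the library subset as a term, *Col15a1* passed the threshold over all libraries. *Col18a1*, the precursor of endostatin, had values of 0.09 (adjusted p = 0.553) over all libraries and 0.08 (adjusted p = 0.631) in replicates 4 and 5.

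**Figure D4:**
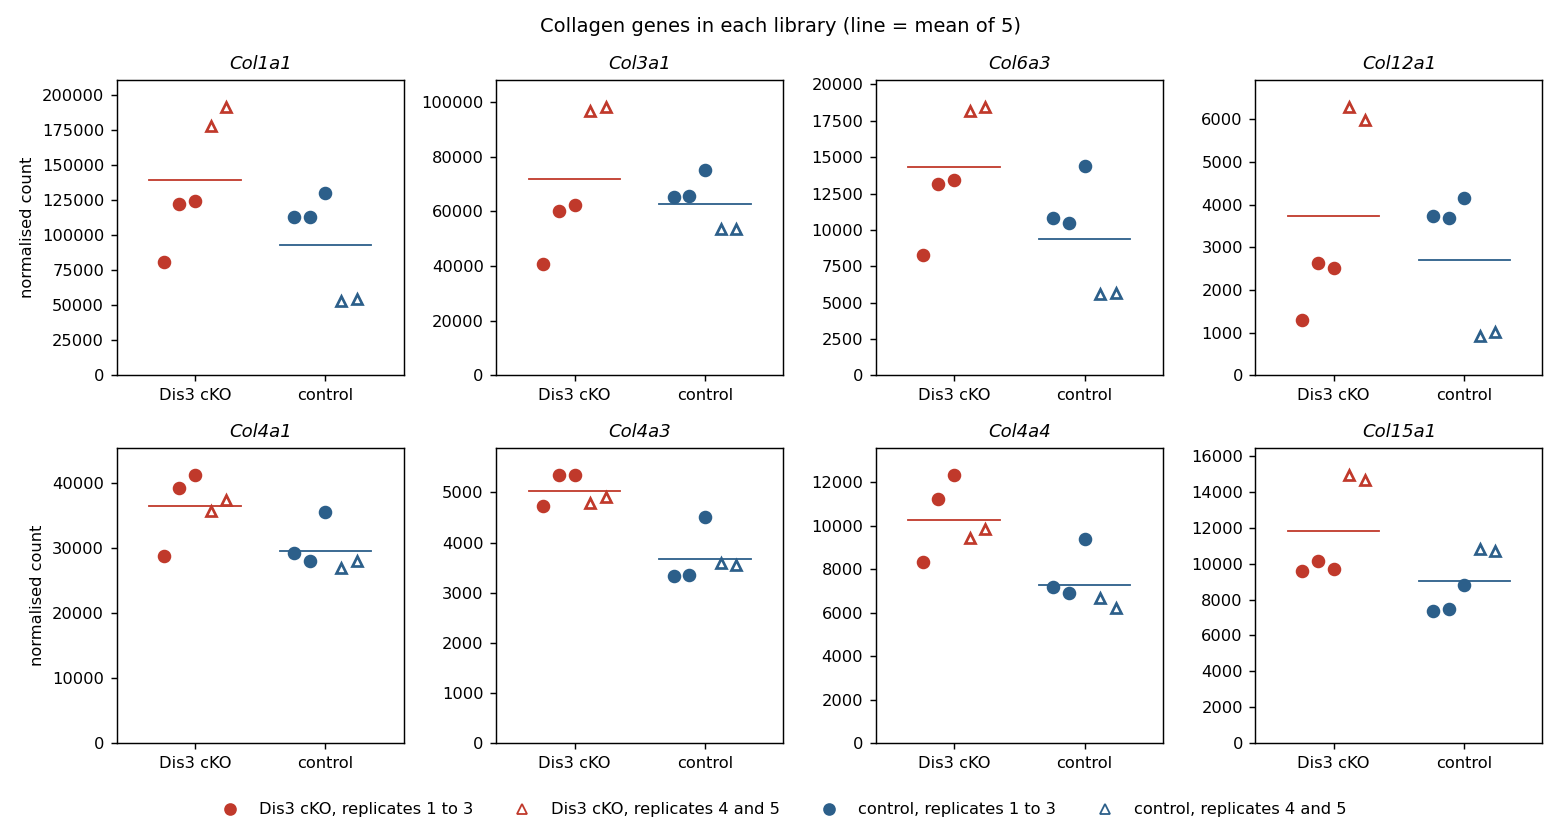
Normalised counts of 8 collagen genes in each library, with *Dis3* cKO left of control; filled circles are replicates 1 to 3, open triangles replicates 4 and 5 and the line the mean of 5. The interstitial genes in the upper row have their triangles at opposite ends of the 2 groups (Col12a1 at 6300 and 5984 in *Dis3* cKO, against 924 and 1006 in control), and the basement membrane genes in the lower row do not.

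Of the 9 tested fibrillar genes, 0 passed the threshold over all libraries, 7 rose in replicates 4 and 5, and 1 fell in replicates 1 to 3. Over all libraries, 4.42% of all genes tested were called higher and 3.48% lower. The shares of all genes were 9.11% higher in replicates 4 and 5 and 4.11% lower in replicates 1 to 3. Over all libraries, 2 were higher and 0 lower at an unadjusted p under 0.05, and DESeq2 called 1 (*Col5a1*). *Col1a1* had 80724, 122324, 124727, 178118 and 191683 normalised counts in *Dis3* cKO replicates 1 to 5, against 113022, 112992, 130291, 53192 and 54141 in control replicates 1 to 5. The 2 controls that stood lowest and the 2 *Dis3* cKO libraries that stood highest were replicates 4 and 5, whereas replicates 1 to 3 of the groups overlapped. Its mean was 139515 ± 45228 in *Dis3* cKO and 92728 ± 36350.5 in control (SD, n = 5 each). The log2 fold change was 0.59 (SE 0.27, adjusted p = 0.201) over all libraries, 1.78 (SE 0.15, adjusted p = 7.75e-07) in replicates 4 and 5 and -0.12 (SE 0.12, adjusted p = 0.586) in replicates 1 to 3. *Col1a2*, the second chain of type I collagen, had 34952, 47645, 47099.7, 70141 and 70807 normalised counts in *Dis3* cKO replicates 1 to 5, against 52712, 53702, 56526, 30134 and 30720.1 in control replicates 1 to 5. It was higher in replicates 4 and 5, with a log2 fold change of 1.21 (SE 0.11, adjusted p = 2.37e-06), and lower in replicates 1 to 3, with -0.33 (SE 0.09, adjusted p = 0.0259). The call in replicates 1 to 3 was lost without control replicate 1, 2 or 3 and when those 6 libraries were fitted alone. Over all libraries the value was 0.27 (adjusted p = 0.489).

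*Col3a1* had 40824, 60119.6, 62393, 96591 and 98292 normalised counts in *Dis3* cKO replicates 1 to 5, against 65156, 65517, 75029.7, 53715 and 53625 in control replicates 1 to 5. The controls spread less than for type I and *Dis3* cKO replicate 1 was the lowest library. The fitted log2 fold change was 0.86 (SE 0.14, adjusted p = 0.000475) in replicates 4 and 5 and -0.33 (SE 0.11, adjusted p = 0.072) in replicates 1 to 3. *Col5a2*, a chain of type V collagen that regulates fibril diameter, had 5852, 9152, 9573, 14723 and 15865 normalised counts in *Dis3* cKO replicates 1 to 5, against 9567, 9419.6, 11005, 6644 and 6771 in control replicates 1 to 5. *Dis3* cKO replicate 1 was the lowest library, below controls 4 and 5, with log2 fold changes of 1.19 (SE 0.16, adjusted p = 7.68e-05) in replicates 4 and 5 and -0.29 (SE 0.13, adjusted p = 0.172) in replicates 1 to 3. *Col11a1*, a minor fibrillar chain, had 909.7, 1278, 1268, 2238 and 2111 normalised counts in *Dis3* cKO replicates 1 to 5, against 1307, 1397, 1465, 888 and 826 in control replicates 1 to 5. In log2 terms, the fold change was 1.34 (SE 0.13, adjusted p = 3.43e-06) in replicates 4 and 5 and -0.27 (SE 0.10, adjusted p = 0.119) in replicates 1 to 3. *Col27a1*, a fibrillar collagen known from cartilage, had 353, 604, 612, 965 and 1139 normalised counts in *Dis3* cKO replicates 1 to 5, against 661, 640.0, 689, 564 and 447 in control replicates 1 to 5. Here *Dis3* cKO replicate 1 was the lowest of all 10 libraries, and the log2 fold change was 1.06 (SE 0.19, adjusted p = 0.00115) in replicates 4 and 5 and -0.34 (SE 0.16, adjusted p = 0.194) in replicates 1 to 3.

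The interaction was 1.91 (SE 0.19, adjusted p = 5.7e-06) for *Col1a1*, 1.54 (SE 0.14, adjusted p = 3.09e-06) for *Col1a2* and 1.61 (SE 0.17, adjusted p = 8.75e-06) for *Col11a1*. It was 1.48 (adjusted p = 0.000204) for *Col5a2*, 1.40 (adjusted p = 0.00228) for *Col27a1* and 1.19 (adjusted p = 0.000497) for *Col3a1*, the smallest of the 6 in log2 terms. *Col5a1*, the more abundant chain of type V, rose in replicates 4 and 5, at 0.86 (SE 0.18, adjusted p = 0.00314), with 0.42 (adjusted p = 0.123) over all libraries and an interaction of 0.75 (adjusted p = 0.0765). *Col5a3* and *Col24a1* passed no threshold, with log2 fold changes in replicates 4 and 5 of 0.65 (adjusted p = 0.106) and 0.48 (adjusted p = 0.117).

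All 6 type VI genes rose in replicates 4 and 5 and passed the interaction test, while over all libraries 0 of 6 passed by edgeR or DESeq2 and 5 were higher at an unadjusted p under 0.05. Among all genes tested, 9.11% were called higher in replicates 4 and 5 and 2.56% had a positive interaction call. Over all libraries, 4.42% of all genes were called higher by edgeR. Type VI filaments are built from the chains of *Col6a1*, *Col6a2* and a further chain, of which *Col6a3* is the common form and *Col6a4*, *Col6a5* and *Col6a6* are alternatives. *Col6a1* had 30285, 39839, 40478, 46561 and 46642 normalised counts in *Dis3* cKO replicates 1 to 5, against 34359, 34266, 41884, 29812 and 28876 in control replicates 1 to 5. On the log2 scale, the fold change was 0.67 (SE 0.12, adjusted p = 0.00111) in replicates 4 and 5 and 0.00 (adjusted p = 0.995) in replicates 1 to 3. *Col6a2* had 27196, 34748, 34782, 42078 and 46563 normalised counts in *Dis3* cKO replicates 1 to 5, against 30867, 30702, 35281, 24814 and 25236 in control replicates 1 to 5. Its log2 fold change was 0.82 (SE 0.11, adjusted p = 6.8e-05) in replicates 4 and 5 and -0.00 (adjusted p = 0.993) in replicates 1 to 3. Both genes overlapped in replicates 1 to 3 and separated in replicates 4 and 5.

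The further chains had larger log2 fold changes in replicates 4 and 5 than the core pair, a difference between genes that was not tested. *Col6a3* had 8291, 13175, 13454, 18154 and 18472 normalised counts in *Dis3* cKO replicates 1 to 5, against 10814, 10483, 14421, 5616 and 5654 in control replicates 1 to 5. The log2 fold change in replicates 4 and 5 was 1.70 (SE 0.18, adjusted p = 8.61e-06), a 3.25-fold ratio of means. *Col6a4* had 950.4, 1421, 1411, 2066 and 2132 normalised counts in *Dis3* cKO replicates 1 to 5, against 1036, 1181, 1573, 762 and 706 in control replicates 1 to 5. In replicates 4 and 5 its log2 fold change was 1.52 (SE 0.18, adjusted p = 2.89e-05). *Col6a6* had 1734, 2465, 2390.4, 4038 and 4089 normalised counts in *Dis3* cKO replicates 1 to 5, against 2067, 1831, 2449, 991 and 1005 in control replicates 1 to 5. Of the 40 members it had the highest log2 fold change over all libraries, 0.82 (SE 0.27, adjusted p = 0.0833), which did not pass the threshold. In replicates 4 and 5 the value was 2.03 (SE 0.15, adjusted p = 1.79e-07), and in replicates 1 to 3 it was 0.06 (adjusted p = 0.826). *Col6a5* had 575, 1286, 1361, 2316 and 2162 normalised counts in *Dis3* cKO replicates 1 to 5, against 1876, 1713, 2164, 349 and 300.5 in control replicates 1 to 5. Its controls 4 and 5 were the lowest libraries and its *Dis3* cKO replicates 1 to 3 below control replicates 1 to 3, so the gene rose in replicates 4 and 5, at 2.79 (SE 0.27, adjusted p = 3.32e-06), and fell in replicates 1 to 3, at -0.83 (SE 0.20, adjusted p = 0.0123). The call in replicates 1 to 3 was lost without control replicate 3 and in DESeq2. Its interaction of 3.62 (SE 0.33, adjusted p = 3.08e-06) was the largest log2 value among the members, followed by those of the FACITs *Col12a1* and *Col9a2*. The interaction call of *Col6a1* was lost without any 1 of the 4 libraries of replicates 4 and 5. The interactions of the other 5 were 0.67 (adjusted p = 0.0174) for *Col6a1*, 0.83 (adjusted p = 0.00137) for *Col6a2*, 1.73 (adjusted p = 0.000123) for *Col6a3*, 1.52 (adjusted p = 0.000523) for *Col6a4* and 1.97 (adjusted p = 3.27e-06) for *Col6a6*.

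Among the 8 tested FACITs, 0 passed over all libraries (0 also at an unadjusted p under 0.05 and by DESeq2), 4 rose in replicates 4 and 5, and 3 of these 4 fell in replicates 1 to 3. By edgeR, 4.42% of all genes were called higher and 3.48% lower over all libraries. The shares of all genes were 9.11% higher in replicates 4 and 5 and 4.11% lower in replicates 1 to 3. *Col12a1*, a fibril-associated collagen of tendon and dense connective tissue, had 1299, 2635, 2510.1, 6299.6 and 5984 normalised counts in *Dis3* cKO replicates 1 to 5, against 3730.5, 3691, 4165, 924 and 1006 in control replicates 1 to 5. *Dis3* cKO replicates 4 and 5 were the highest libraries and controls 4 and 5 the lowest, and *Dis3* cKO replicates 1 to 3 lay below control replicates 1 to 3. Its log2 fold change was 2.67 (SE 0.22, adjusted p = 6.79e-07) in replicates 4 and 5, -0.84 (SE 0.17, adjusted p = 0.00339) in replicates 1 to 3 and 0.47 (SE 0.47, adjusted p = 0.594) over all. *Col14a1*, its relative on the fibril surface, had 1960.1, 3792, 3790.2, 8528 and 8678 normalised counts in *Dis3* cKO replicates 1 to 5, against 4419, 4439, 4966, 2120.2 and 2335 in control replicates 1 to 5. The fitted log2 fold change was 1.95 (SE 0.20, adjusted p = 8.17e-06) in replicates 4 and 5 and -0.53 (SE 0.16, adjusted p = 0.0433) in replicates 1 to 3. The call in replicates 1 to 3 was lost in 9 of 16 alternatives, among them those without any 1 control library. *Col9a2*, a chain of the cartilage FACIT type IX, had 355, 702, 789, 1567 and 1649.9 normalised counts in *Dis3* cKO replicates 1 to 5, against 1248, 1227, 1171, 239 and 327 in control replicates 1 to 5. Again *Dis3* cKO replicates 1 to 3 lay between the 2 subsets of controls, with 2.51 (SE 0.24, adjusted p = 3.43e-06) in replicates 4 and 5 and -0.98 (SE 0.19, adjusted p = 0.00273) in replicates 1 to 3. *Col16a1*, a FACIT of fibroblasts and smooth muscle, had 1413, 2275, 2231, 2708 and 2876 normalised counts in *Dis3* cKO replicates 1 to 5, against 2119, 2064, 2335, 1475 and 1341 in control replicates 1 to 5. It rose in replicates 4 and 5, at 0.99 (SE 0.16, adjusted p = 0.00041), and did not pass in replicates 1 to 3, at -0.14 (adjusted p = 0.561).

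The interactions were 3.51 (SE 0.27, adjusted p = 4.98e-07) for *Col12a1*, 3.48 (SE 0.30, adjusted p = 1.73e-06) for *Col9a2*, 2.48 (SE 0.26, adjusted p = 9.31e-06) for *Col14a1* and 1.12 (adjusted p = 0.00253) for *Col16a1*. The other type IX chains passed no threshold. *Col9a3* had 91.3, 96.8, 107, 176 and 137 normalised counts in *Dis3* cKO replicates 1 to 5, against 121, 126, 114, 158 and 142 in control replicates 1 to 5. Replicates 4 and 5 were at the top of both groups, and over all libraries the log2 fold change was -0.12 (SE 0.19, adjusted p = 0.76). For *Col9a1*, also of type IX, the value over all libraries was 0.21 (adjusted p = 0.723). *Col22a1*, a FACIT of tissue junctions, had 60.5, 76.9, 60.4, 37.7 and 109.8 normalised counts in *Dis3* cKO replicates 1 to 5, against 81.1, 90.5, 85.7, 93 and 66.2 in control replicates 1 to 5. Its log2 fold change of -0.27 (SE 0.24, adjusted p = 0.556) was the lowest of the 40. Its groups overlapped over all libraries and in replicates 4 and 5. *Col20a1* had a value of 0.52 (adjusted p = 0.441) at 9 to 30 reads per library.

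*Col7a1*, which forms the anchoring fibrils under stratified epithelia, had 135, 199, 210.2, 317 and 313 normalised counts in *Dis3* cKO replicates 1 to 5, against 235, 246, 252, 42.2 and 53.3 in control replicates 1 to 5. Controls 4 and 5 were the lowest libraries, with 44 reads in the lower. In log2 terms, the fold change was 2.72 (SE 0.23, adjusted p = 8.11e-07) in replicates 4 and 5, -0.42 (SE 0.16, adjusted p = 0.115) in replicates 1 to 3 and 0.50 (SE 0.43, adjusted p = 0.531) over all, and the interaction was 3.14 (SE 0.28, adjusted p = 2.03e-06). *Col8a2*, a short-chain collagen of vessel walls and the cornea, had 183, 406, 455, 482 and 576 normalised counts in *Dis3* cKO replicates 1 to 5, against 554, 523, 528, 277 and 248 in control replicates 1 to 5. *Dis3* cKO replicate 1 was the lowest library, and the gene rose in replicates 4 and 5, at 1.01 (SE 0.26, adjusted p = 0.0132), with -0.61 (adjusted p = 0.0747) in replicates 1 to 3 and an interaction of 1.62 (adjusted p = 0.00827). Its partner *Col8a1* rose in replicates 4 and 5, at 1.15 (SE 0.30, adjusted p = 0.0133), and *Col28a1* likewise, at 1.82 (SE 0.61, adjusted p = 0.0478), on 6 to 45 reads per library. The call of *Col28a1* was lost in 10 of 16 alternatives, DESeq2 among them, over which its value ranged between 1.03 and 2.64. The calls of *Col8a1* and *Col8a2* in replicates 4 and 5 were lost without control replicate 4 or 5, that of *Col8a1* also without *Dis3* cKO replicate 4, and that of *Col8a2* also without *Dis3* cKO replicate 5 and in DESeq2. The interaction call of *Col8a2* was lost without *Dis3* cKO replicate 5 or control replicate 5.

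Of the 4 membrane-spanning collagens, 0 passed the threshold in replicates 4 and 5 by edgeR (0 also at an unadjusted p under 0.05 and by DESeq2). By edgeR, 9.11% of all genes were called higher and 9.21% lower in replicates 4 and 5. *Col13a1* and *Col17a1*, of cell adhesion sites and hemidesmosomes, had log2 fold changes in replicates 4 and 5 of -0.13 (SE 0.20, adjusted p = 0.716) and -0.27 (SE 0.16, adjusted p = 0.284), and *Col23a1* had 0.15 (SE 0.11, adjusted p = 0.386). *Col25a1*, known from motor axons and muscle, rose in replicates 1 to 3, at 0.32 (SE 0.09, adjusted p = 0.0333). In replicates 4 and 5 it had 0.01 (SE 0.11, adjusted p = 0.983), and the interaction of -0.32 (SE 0.15, adjusted p = 0.269) did not pass. The call of *Col25a1* was lost in 8 of 16 alternatives. In control, replicates 4 and 5 lay above replicates 1 to 3 for all 4 of these genes, whereas they lay below them for 8 of 9 tested fibrillar genes. The shares of all genes tested were 23.7% above and 24.1% below. *Col26a1*, a collagen first described in testis and ovary, had -0.01 (SE 0.09, adjusted p = 0.955) over all libraries and 0.10 (adjusted p = 0.64) in replicates 4 and 5.

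The genes that make, secrete and cross-link collagen were counted as a list of their own. Of 32 tested biosynthesis genes, 2 rose and 1 fell over all libraries, against 4.42% of all genes called higher and 3.48% lower, with a median log2 fold change of 0.13. *Mia3*, which loads procollagen into carriers at the endoplasmic reticulum, had 3287, 3393, 3296, 3731 and 3795 normalised counts in *Dis3* cKO replicates 1 to 5, against 2786, 2633, 3023, 3042 and 2897 in control replicates 1 to 5. Its groups did not overlap. On the log2 scale, the fold change was 0.28 (SE 0.07, adjusted p = 0.0213). *Adamts2*, the protease that removes the amino-terminal propeptide, had 5679, 7046, 7159, 7506 and 8139 normalised counts in *Dis3* cKO replicates 1 to 5, against 5963, 5658, 6149.5, 4143 and 4524 in control replicates 1 to 5. *Dis3* cKO replicate 1 lay among the controls, of which replicates 4 and 5 were the lowest. For this gene, the log2 fold change was 0.43 (SE 0.12, adjusted p = 0.0407) over all libraries and 0.85 (adjusted p = 2.7e-05) in replicates 4 and 5. *P4hb*, the disulfide isomerase subunit of prolyl 4-hydroxylase, had 10019, 11852, 12053, 12990.3 and 12814 normalised counts in *Dis3* cKO replicates 1 to 5, against 15329, 14891, 14703, 14495 and 14120.5 in control replicates 1 to 5. All *Dis3* cKO libraries lay below all controls. The fitted log2 fold change was -0.30 (SE 0.07, adjusted p = 0.0228). Without control replicate 1 or without control replicate 2, 0 of the 32 genes passed. In replicates 4 and 5, 11 rose and 1 fell, and in replicates 1 to 3, 1 rose and 4 fell. Of all genes, 9.11% were called higher and 9.21% lower in replicates 4 and 5, and 6.5% higher and 4.11% lower in replicates 1 to 3.

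The interaction was positive for 8 biosynthesis genes and negative for 0, against 2.56% and 2.02% of all genes. They included 3 of the 5 lysyl oxidases, which cross-link fibrils, whereas *Loxl3* had 0.00 (adjusted p = 0.997) and *Loxl4* had -0.30 (adjusted p = 0.729). *Loxl2* had 1558, 1926, 2140.0, 3146 and 3479.8 normalised counts in *Dis3* cKO replicates 1 to 5, against 2318, 2446, 2438, 1301 and 1315 in control replicates 1 to 5. Its interaction was 1.70 (SE 0.15, adjusted p = 1.5e-06). *Lox* had 4910.1, 5385, 5509.8, 9869 and 9442 normalised counts in *Dis3* cKO replicates 1 to 5, against 6342, 6091, 5945, 5908 and 5684 in control replicates 1 to 5. The interaction of this gene was 0.95 (SE 0.10, adjusted p = 9.4e-06). Replicates 4 and 5 of *Dis3* cKO were the highest libraries for both, and controls 4 and 5 the lowest controls, by a wide gap for *Loxl2* and a narrow one for *Lox*. *Loxl1* had a value of 1.19 (adjusted p = 4.23e-05) and *Adamts2* of 0.69 (adjusted p = 0.00379), and the hydroxylases *P4ha2*, *P3h1* and *P3h2* and the chaperone *Fkbp10* made up the rest. *Serpinh1*, the collagen chaperone HSP47 and the most highly counted gene of the list, had -0.07 (SE 0.13, adjusted p = 0.793) over all libraries and -0.13 (adjusted p = 0.432) in replicates 4 and 5.

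Of 19 tested genes of collagen breakdown and collagen receptors, 2 rose over all libraries and 0 fell, against 4.42% of all genes called higher and 3.48% lower, with a median log2 fold change of 0.17. *Mmp2*, a gelatinase that cleaves type IV collagen, had 9424, 12040.4, 12502, 9674 and 11054 normalised counts in *Dis3* cKO replicates 1 to 5, against 7446, 7749, 8306, 8391 and 8638 in control replicates 1 to 5. Its lowest *Dis3* cKO library lay above the highest control, and the log2 fold change was 0.43 (SE 0.08, adjusted p = 0.00842). *Timp3*, a matrix-bound inhibitor of metalloproteinases, had 13878, 13724, 13607, 12408 and 12571 normalised counts in *Dis3* cKO replicates 1 to 5, against 11065, 11136, 11285, 10194 and 10383 in control replicates 1 to 5. Again the groups did not overlap. In log2 terms, the fold change was 0.29 (SE 0.06, adjusted p = 0.0112). Neither differed between the subsets past the threshold (interaction -0.25 (adjusted p = 0.406) for *Mmp2* and -0.02 (adjusted p = 0.945) for *Timp3*). Of the 19 genes, 7 rose in replicates 4 and 5 and 2 in replicates 1 to 3, with 0 fallen in either, against 9.11% and 6.5% of all genes called higher. The collagen-binding integrin subunits *Itga1*, *Itga2* and *Itga11* and the inhibitor *Timp2* had positive interactions, of 1.42 (adjusted p = 1.01e-06), 0.82 (adjusted p = 0.0425), 0.78 (adjusted p = 0.00051) and 0.72 (adjusted p = 0.000245).

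Marker genes of some other cell types moved with these library subsets. Past the interaction test were 0 of 10 Sertoli genes, 0 of 8 macrophage genes and, of 7 tested Leydig genes, 1 in each direction. The Sertoli sum was 226984, 235360, 233314, 171706 and 185204 normalised counts in *Dis3* cKO replicates 1 to 5. In control replicates 1 to 5 it was 204317, 205902, 204435, 180188 and 181132. The summed level of the 10 peritubular myoid genes was 82826, 94559, 94867, 98171 and 100723 in *Dis3* cKO replicates 1 to 5, against 97915, 98518, 101638, 67865 and 67683 in control replicates 1 to 5, in normalised counts. Of these 10 genes, 6 had a positive interaction past the threshold and 0 a negative one, against 2.56% and 2.02% of all genes tested. The summed level of the 12 stromal genes, led by *Dcn* and *Pdgfra*, was 125206, 128339, 126108, 176149 and 170468 in *Dis3* cKO replicates 1 to 5, against 118511, 118179, 121460, 125909 and 124406 in control replicates 1 to 5. Of these genes, 5 had a positive interaction. Controls 4 and 5 were low in the myoid sum, and *Dis3* cKO replicates 4 and 5 were high in the stromal sum, to which *Dcn*, *Pdgfra* and *Mfap4* gave most counts. Some stromal genes (*Lum*, *Tcf21* and *Mfap4*) were nevertheless lower in controls 4 and 5 than in controls 1 to 3. *Lum*, a proteoglycan that binds collagen fibrils, had 648, 828, 905, 1121 and 1335 normalised counts in *Dis3* cKO replicates 1 to 5, against 1051, 1013, 961, 517 and 544 in control replicates 1 to 5. Its interaction was 1.55 (adjusted p = 2.22e-05). The mesothelial genes *Upk3b*, *Msln*, *Krt19* and *Lrrn4* were higher in replicates 4 and 5 of both genotypes, and 3 of the 5 mesothelial genes had a negative interaction. *Upk3b* had 115, 169, 181, 543 and 639 normalised counts in *Dis3* cKO replicates 1 to 5, against 125, 117, 107, 965 and 919.7 in control replicates 1 to 5. Summed germ cell markers, 12 genes, ranged from 14043 to 17889 in *Dis3* cKO and 20075 to 25982 in control, lowest in *Dis3* cKO replicates 4 and 5, and 4 of the 11 tested had a negative interaction. Summed epididymal duct markers, 6 genes, were 455, 567, 581, 752 and 786 in *Dis3* cKO replicates 1 to 5, against 828, 720.2, 581, 496 and 514 in control replicates 1 to 5. As for the fibrillar and other collagens, replicates 4 and 5 were at the top of *Dis3* cKO and the bottom of control, and 2 of the 4 tested genes, *Emx2* and *Pax8*, had a positive interaction. Of the 4, 1 had a negative interaction value, -1.03, which did not pass the threshold. Summed erythroid markers, 6 genes, were 1099.8, 1229, 1334, 2533 and 3109.6 in *Dis3* cKO replicates 1 to 5, against 1347, 1364, 1010.2, 1744 and 1715 in control replicates 1 to 5. They were highest in *Dis3* cKO replicates 4 and 5, and *Hbb-bs*, a beta globin, had an interaction of 0.90 (adjusted p = 0.00432). Summed endothelial markers, 8 genes, were 16256, 18418, 18944.5, 21002 and 21424 in *Dis3* cKO replicates 1 to 5, against 15279.9, 15399.7, 17898, 15963 and 16034.5 in control replicates 1 to 5. Control replicate 3, high for type IV collagen, was the highest control. Of the 8 genes, 1 had a positive interaction past the threshold and 0 a negative one. In replicates 4 and 5, 5 of the 8 rose and 0 fell, against 9.11% of all genes called higher and 9.21% lower. Cartilage, skeletal muscle and adipose markers gave sums of 2965 to 3620.0 in *Dis3* cKO and 2702 to 3287 in control, 316 to 388 in *Dis3* cKO and 385 to 504 in control and 2579 to 3154 in *Dis3* cKO and 3091 to 3212 in control. In the cartilage list *Matn1*, *Snorc* and *Matn3* were at or near 0, while *Acan*, the cartilage proteoglycan, rose in replicates 4 and 5, at 1.15 (adjusted p = 0.00116), and *Sox5* had an interaction of 0.93 (adjusted p = 0.00396). Of the 5 tested cartilage genes, 2 had a positive and 3 a negative interaction value, with a median of -0.12. In replicates 4 and 5 their log2 fold changes ran from -0.73 to 1.15, with 2 risen and 0 fallen past the threshold. *Acta1* and *Myog* of skeletal muscle and *Adipoq*, *Cidec* and *Lep* of fat were at low levels in both groups. The part of these cell types in the collagen results was not tested.

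**Figure D5:**
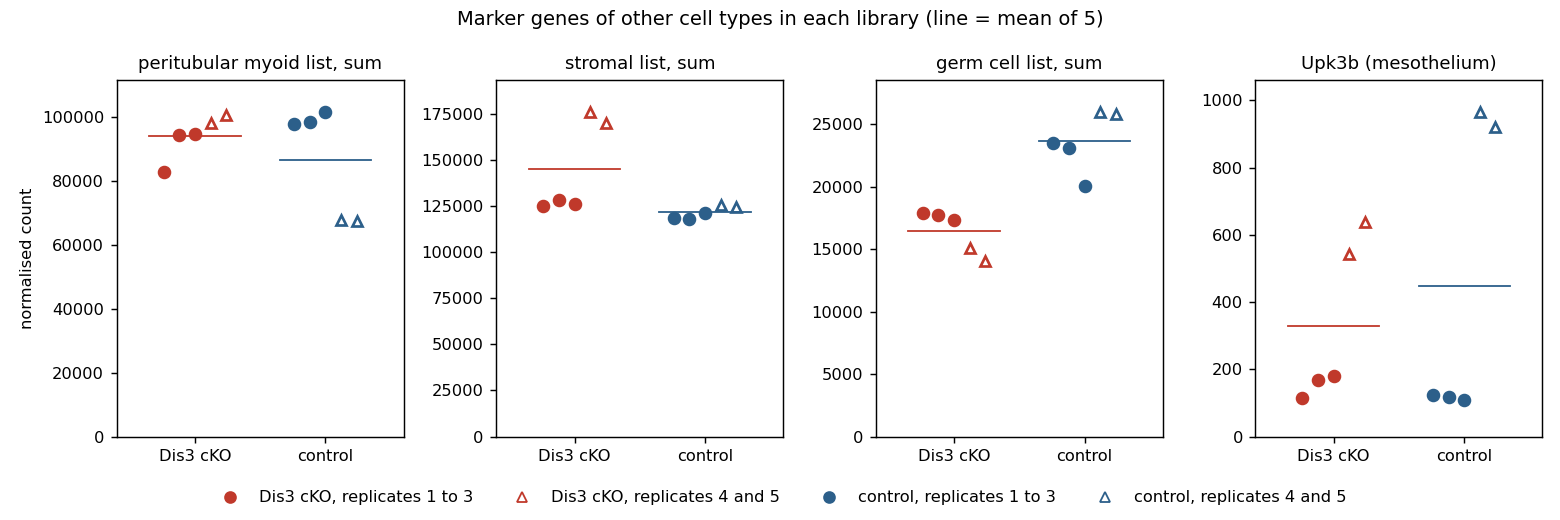
Normalised counts of marker genes of other cell types in each library, with *Dis3* cKO left of control; circles are replicates 1 to 3, open triangles replicates 4 and 5 and the line the mean of 5. Control replicates 4 and 5 are low in the myoid sum (67865 and 67683), *Dis3* cKO replicates 4 and 5 are high in the stromal sum (176149 and 170468), and Upk3b is high in replicates 4 and 5 of both groups.

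Promoter upstream transcripts (PROMPTs), which the exosome normally degrades, were counted on the strand opposite to the gene over the 3000 bases before the start site. Of the collagen genes, 28 have such a region in the table and 12 had a mean of at least 3 reads. In *Dis3* cKO, 0 of the 12 passed the threshold (edgeR, with DESeq2 also 0, and with 1 higher and 0 lower at an unadjusted p under 0.05), whereas 13.6% of all 12345 tested regions were called higher and 0.0486% lower. The median log2 fold change was 0.45, against 0.64 for all regions tested, and turned to -0.24 for the members, against -0.08 for all regions, when the PROMPT counts were scaled to their own totals, with 5.18% of all regions then called higher. In replicates 1 to 3 the median of the 12 was -0.44, against 0.43 for all regions, with 1 higher and 2 lower at an unadjusted p under 0.05. In replicates 4 and 5 it was 1.21, against 1.17, with 12 of 12 positive and 4 higher at an unadjusted p under 0.05. The 1 region higher at an unadjusted p over all libraries was that of *Col18a1* (chromosome 10, 77166549 to 77169548), with a log2 fold change of 1.16 (SE 0.52, edgeR adjusted p = 0.143). Its normalised counts were 28.4, 18, 24.6, 25.5 and 4.53 in *Dis3* cKO replicates 1 to 5, against 7.46, 7.54, 8.4, 6.71 and 14.7 in control replicates 1 to 5. The groups overlapped. Such counts are low: the region of *Col1a1*, the collagen with the highest level, held 21 reads in *Dis3* cKO libraries together and 21 in control. Differences in regions with so few reads may not be detectable at this depth.

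The last 250 bases before the start site are shown for 4 members to set promoters of genes whose folds differed between the library subsets (*Col3a1*, *Col6a5*, *Col7a1*) beside that of the 1 basement membrane gene whose folds did (*Col4a6*). Sequences are from RefSeq (GRCm38.p6), 5′ to 3′ on the gene's strand, at chr1:45311288-45311537 (+), chr9:105960644-105960893 (-), chr9:108953336-108953585 (+) and chrX:141474077-141474326 (-), and no exon of the count table's annotation overlaps them. Capitals mark a CCAAT box, a GC box of the letters GGGCGG, or a TATA box of the letters TATAAA, each on either strand.
Col3a1: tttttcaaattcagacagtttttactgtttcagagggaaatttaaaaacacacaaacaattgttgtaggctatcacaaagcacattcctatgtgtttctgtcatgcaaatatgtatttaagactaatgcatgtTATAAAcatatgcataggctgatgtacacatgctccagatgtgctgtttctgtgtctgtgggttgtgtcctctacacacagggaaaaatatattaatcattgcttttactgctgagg
Col6a5: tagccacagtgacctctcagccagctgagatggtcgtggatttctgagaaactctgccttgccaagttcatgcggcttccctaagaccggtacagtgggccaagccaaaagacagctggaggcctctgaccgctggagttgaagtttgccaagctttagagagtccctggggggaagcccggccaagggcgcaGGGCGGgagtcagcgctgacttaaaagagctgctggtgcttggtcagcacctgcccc
Col7a1: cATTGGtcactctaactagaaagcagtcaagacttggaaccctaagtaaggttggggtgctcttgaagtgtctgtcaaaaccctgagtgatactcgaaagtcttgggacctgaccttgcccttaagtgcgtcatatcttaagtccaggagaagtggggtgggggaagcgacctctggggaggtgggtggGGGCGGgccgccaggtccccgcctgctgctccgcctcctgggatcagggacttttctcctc
Col4a6: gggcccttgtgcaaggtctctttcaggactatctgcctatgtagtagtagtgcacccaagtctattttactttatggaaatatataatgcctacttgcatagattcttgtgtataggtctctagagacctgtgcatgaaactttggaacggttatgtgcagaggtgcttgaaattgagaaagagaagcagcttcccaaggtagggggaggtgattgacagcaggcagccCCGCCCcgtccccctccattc
*Col3a1* shows a TATA box match only, *Col6a5* a GC box match only, *Col4a6* a GC box match only, on the other strand, and *Col7a1* a CCAAT box match, on the other strand, and a GC box match. The promoter table matched 35 of the 44 members, taking the start nearest to that of the count table. In the 250 bases upstream, the GC box was found in 21 of the 35 (60%), against 32.7% of all 32851 promoters. The CCAAT box was found in 12 (34.3%), against 33.8%, and the TATA box in 5 (14.3%), against 12.4%. These matches are letters found on either strand, could overlap between motifs, and are a description of the windows searched.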

How the data were processed

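Whole P4 testes of 5 *Dis3* cKO and 5 control mice were profiled with random and poly(T) priming and strand selection. The deposited counts are raw reads per gene, made by the authors with featureCounts 1.6.4 on the GENCODE M18 annotation (GRCm38.p5 in the submitters' notes), and PROMPT counts over 3000 bases upstream of genes. The study's methods name GRCm39 instead, and coordinates here follow the count table. Gene names were matched by ID for 50129 of 54232 genes, which held 99.0% of counts. Genes were kept with filterByExpr (min.count 10, min.total.count 15), scaled by TMM and tested with edgeR 4.0.16 (quasi-likelihood) in R 4.3.3, with Benjamini-Hochberg adjustment over all genes and a threshold of 0.05. PROMPTs with a mean of at least 3 counts were scaled by the gene libraries. DESeq2 1.42.0, RLE scaling, no filter, a gene length trend removed, a replicate block and leaving out each library were alternatives. The self-test used simulated counts. Depth per library stands in the report, and intervals reflect the spread between libraries only.

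The members and lists were chosen with earlier results of these data known, and the division into replicates 1 to 3 and 4 and 5 is named by no label and was made after the data were seen. Values per library are given for members past the threshold over all libraries or in the interaction, for the 3 members of each class with the highest RPKM and for the 2 lowest log2 fold changes. Of each list, up to 4 called genes with the lowest adjusted p are named, and further names were chosen after their values were seen. No sample was left out.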

Additional observations from a re-analysis of the deposited data

Results flagged for a closer look

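The highest or lowest library stood apart from the other 4 of its group, by Dixon's test at the 95% level, in 7 of 80 tests of single collagen genes and in 8 of 88 tests in all, where chance gives about 1 in 20. Control replicate 3 was the highest control for *Col5a1* (10905 normalised counts, next 7821), *Col5a3* (804, next 500.3), *Col4a1* (35593, next 29312), *Col4a2* (26247, next 19685), *Col4a3* (4511, next 3595) and the basement membrane sum (100167, next 80906). *Dis3* cKO replicate 1 was lowest for *Col13a1* (506, next 791), and *Dis3* cKO replicate 4 was highest for *Col28a1* (49.8, next 24.7).

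The log2 fold change (*Dis3* cKO over control) differed between replicates 4 and 5 and replicates 1 to 3 for 19 genes by the edgeR interaction test. The difference, replicates 4 and 5 minus replicates 1 to 3, was 1.91 for *Col1a1*, 1.54 for *Col1a2*, 1.19 for *Col3a1*, 1.48 for *Col5a2*, 1.61 for *Col11a1* and 1.40 for *Col27a1* among fibrillar genes, and 0.55 for *Col4a6*. Among type VI genes it was 0.67 for *Col6a1*, 0.83 for *Col6a2*, 1.73 for *Col6a3*, 1.52 for *Col6a4*, 3.62 for *Col6a5* and 1.97 for *Col6a6*. Among the rest it was 3.14 for *Col7a1*, 1.62 for *Col8a2*, 3.48 for *Col9a2*, 3.51 for *Col12a1*, 2.48 for *Col14a1* and 1.12 for *Col16a1*.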

How the results depend on the processing

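No called value of a collagen gene or of *Dis3* changed direction under any alternative in which it was fitted. Changes of direction were not checked for the other lists and the markers. The *Dis3* log2 fold change stayed between -1.67 and -1.58. The 2 collagen calls over all libraries became 6 with DESeq2, 7 with no filter on low counts, 1 with the length trend removed, 7 with the library subset as a term and 1 at an adjusted p under 0.01, and ranged from 1 to 9 when 1 library was left out. With the close library pairs merged, an alternative chosen after seeing the data in which a lone library is assumed to vary like the others, they became 0, and the 19 interaction calls became 10. The 9 calls in replicates 1 to 3 became 16 with no filter and 5 when those libraries were fitted alone, with 4 to 12 when 1 library was left out. The 27 calls in replicates 4 and 5 ranged from 20 to 30 and the interaction calls from 16 to 21 when 1 library was left out. The 3 biosynthesis calls became 5 with DESeq2, 1 with the length trend removed, 6 with the subset term, 0 with pairs merged and 0 at 0.01, with 0 to 5 when 1 library was left out. The 2 breakdown and receptor calls became 0 with pairs merged and 1 at 0.01, with 2 to 4 when 1 library was left out. PROMPT calls stayed at 0.

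Whether replicate numbers pair the libraries could not be told from their deviations. Same-numbered libraries had correlations of 0.083 to 0.183 (mean 0.1356), against 0.018 to 0.1595 (mean 0.1015) for other numbers of the same subset. Across the subsets the mean was -0.1225, and 3 of 5 *Dis3* cKO libraries correlated best with their own number. With the replicate block, collagen calls were 6 over all libraries (*Col4a1*, *Col4a2*, *Col4a3*, *Col4a4*, *Col15a1* and *Col23a1*, 6 also with the length trend removed), 15 in replicates 1 to 3, 29 in replicates 4 and 5 and 21 in the interaction, with 4 biosynthesis, 3 breakdown and receptor and 0 PROMPT calls, and *Dis3* had -1.62.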
